A study of Mus musculus with 22 samples.

Results

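The 9 transcripts described here encode enzymes that make proline, asparagine and alanine, break them down, or move nitrogen among them: Aldh18a1, Pycr1, Oat and Prodh for proline, Asns and Aspg for asparagine, and the aminotransferases Gpt, Gpt2 and Got1. They were taken by name: each of the 9 symbols matched 1 of the 38924 Ensembl gene IDs in the deposited tables, and all 9 were among the 16974 genes with enough reads to be tested. The data are RNA sequencing of whole spinal cord from mice aged 7 months on a mixed B6N;B6J background, in 22 libraries. Wild type cords (WT, 6 libraries) were compared with cords carrying the E196K change of the tyrosyl-tRNA synthetase Yars on 1 allele (genotype E196K/+, HET, 6 libraries) or on both alleles (E196K/E196K, HOM, 10 libraries), to find transcripts that differ with the mutation. The labels give no sex and do not state that each library came from a separate mouse, so every p-value measures the spread between these libraries, some of which may be technical. Libraries are numbered within a genotype in order of deposition, and the numbers pair nothing.

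Proline is made from glutamate in mitochondria. The ALDH18A1 enzyme makes pyrroline carboxylate, and the PYCR1 reductase turns it into proline. OAT, ornithine aminotransferase, reaches the same intermediate from ornithine, and PRODH, proline dehydrogenase, oxidises proline back to it. ASNS makes asparagine from aspartate and glutamine, and ASPG belongs to the asparaginases, which remove the amide group again. GPT in the cytosol and GPT2 in mitochondria pass an amino group between glutamate and pyruvate to form or use alanine, while GOT1 does so between glutamate and oxaloacetate in the cytosol to form or use aspartate. Asns, Aldh18a1, Pycr1 and Gpt2 are textbook targets of ATF4, a transcription factor made in larger amounts when the integrated stress response slows translation, as in amino acid shortage.

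The upstream sequences of 4 members are shown: Aldh18a1, the member that passed the test below, and the 3 whose windows held a motif tied to ATF4. They are RefSeq windows of GRCm38.p6, written 5′ to 3′ on the strand of the gene and ending at or before the RefSeq start site; 8 of the 9 members matched the table by symbol. Capitals mark the letters TGATGNAA, the core of the C/EBP-ATF response element that ATF4 binds with its partners, searched on both strands. Asns, chr6:7693225-7693459 (minus strand), ends with the match; Pycr1 is chr11:120643749-120643998 (minus), Got1 is chr19:43524606-43524855 (minus) and Aldh18a1 is chr19:40588464-40588713 (minus).
Asns: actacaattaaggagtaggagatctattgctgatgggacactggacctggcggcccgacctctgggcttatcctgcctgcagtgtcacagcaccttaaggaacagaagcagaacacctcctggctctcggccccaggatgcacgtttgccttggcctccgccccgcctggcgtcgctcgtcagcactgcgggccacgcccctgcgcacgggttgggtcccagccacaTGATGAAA
Pycr1: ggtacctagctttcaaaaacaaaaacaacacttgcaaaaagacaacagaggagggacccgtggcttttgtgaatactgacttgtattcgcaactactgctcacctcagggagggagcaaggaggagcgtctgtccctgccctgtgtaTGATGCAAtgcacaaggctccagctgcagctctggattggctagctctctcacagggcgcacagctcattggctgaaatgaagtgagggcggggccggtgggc
Got1: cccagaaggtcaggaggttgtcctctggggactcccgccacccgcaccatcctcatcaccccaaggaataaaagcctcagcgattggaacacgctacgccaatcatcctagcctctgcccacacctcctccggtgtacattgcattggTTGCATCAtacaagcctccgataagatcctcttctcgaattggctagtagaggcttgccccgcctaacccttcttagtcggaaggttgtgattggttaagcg
Aldh18a1: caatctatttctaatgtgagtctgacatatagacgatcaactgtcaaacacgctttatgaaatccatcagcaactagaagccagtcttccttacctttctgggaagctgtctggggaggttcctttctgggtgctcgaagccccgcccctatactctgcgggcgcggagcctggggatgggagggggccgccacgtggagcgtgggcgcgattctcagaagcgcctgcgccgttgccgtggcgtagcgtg

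Of the 8 member windows of 300 bases, which run from 250 bases before to 50 after the start, 3 held TGATGNAA: Asns, Pycr1 and Got1. The match was TGATGAAA in Asns, from 23 to 16 bases before the RefSeq start, and this start lies 45 bases inside the gene as GENCODE M21 draws it. In Pycr1 it was TGATGCAA, 103 to 96 bases before the start, and in Got1 the same letters stood on the other strand, 102 to 95 bases before it. Across all 32851 RefSeq windows of this length 3.97% held these letters on either strand. The palindrome TGACGTCA, the cyclic AMP response element, was in none of the 8 member windows and in 1.79% of all windows. These letters describe the windows and show no binding. The Aldh18a1 window held neither motif, which says only that the letters are absent from that window.

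By GENCODE M21 positions on GRCm38, matched by gene ID, Aldh18a1 (ENSMUSG00000025007) spans chr19:40550257-40588463, Pycr1 (ENSMUSG00000025140) chr11:120635712-120643769 and Asns (ENSMUSG00000029752) chr6:7675169-7693254. No member shares exon bases with another annotated gene. Prodh (chr16:18060357-18090203) overlaps Dgcr6 on the opposite strand outside their exons, and whether the counting used strand is not stated in the labels used here.

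The libraries held between 24448477 (HET 6) and 42805931 (WT 2) expected counts in all. Levels between libraries are given as CPM, which scale each library's counts to its TMM-adjusted total over the tested genes, and levels between genes as the deposited TPM, which are scaled by transcript length. Yars itself ran from 109 to 118 CPM in WT, 110 to 123 in HET and 109 to 129 in HOM, and a protein change need not alter its transcript, so this does not check the labels. Summed over 5 markers each, neurons gave 3890 to 5140 CPM, astrocytes 3980 to 5990, motor neurons 108 to 188 and microglia 228 to 316. HOM 3 was lowest in each of these 4 sums. Among astrocyte markers only Gfap was below all other libraries there, at 683 CPM against at least 1110. Aqp4, Aldh1l1, Slc1a2 and Gja1 in HOM 3 lay within the range of the others. By these markers 1 library, HOM 3, stood apart. It held the Schwann cell marker Prx at 500 CPM, against at most 1.31 in any other library. Cldn19, another Schwann cell marker, was there at 72.7 CPM against at most 0.374 elsewhere. HOM 3 also had 481 CPM for fibroblast markers (95.2 to 109 elsewhere) and 13500 for oligodendrocyte markers, below the 16800 to 20300 of the others. Its marker sums were highest for blood and neutrophils (1400 CPM, at most 799 elsewhere) and endothelium (230, at most 186). The same held for skeletal muscle (12.6, at most 1.4) and adipocytes (2.28, at most 0.368). Of the adipocyte sum Fabp4 gave 1.79 CPM, and Plin1, Cidec and Lep lay within the range of the other libraries. Aldh18a1 in HOM against HET is the only member result whose call changed when HOM 3 was left out, and values without it are given beside the results it moved most. Liver markers summed to at most 0.898 CPM in any library, with Fgb at 0 throughout.

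In WT cord the members covered a wide range of length-scaled levels. Got1 was highest at 298 TPM (SD 14.6, n = 6). Asns (84.8, SD 4.81) and Oat (82.7, SD 4.79) followed with overlapping libraries, then Gpt2 (44, SD 4.04), which overlapped neither neighbour. Prodh (21.5, SD 3.61), Aldh18a1 (16.2, SD 1.22) and Gpt (15.1, SD 1.65) formed an overlapping trio. Aspg (2.52, SD 0.608) and Pycr1 (1.71, SD 0.407) were lowest and overlapped each other. Asns stood far above Aspg, the minor asparaginase transcript, with a mean log2 ratio on the TPM scale of 5.11 in WT (SD 0.336), a ratio of 34.5. Against the abundant asparaginase Asrgl1, at 82.9 TPM (SD 6.88), the Asns level of 84.8 TPM was about equal. For proline the synthesis transcript Aldh18a1 stood slightly below the breakdown transcript Prodh in every WT library (mean log2 ratio -0.39, from -0.79 to -0.06).

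**Figure D1:**
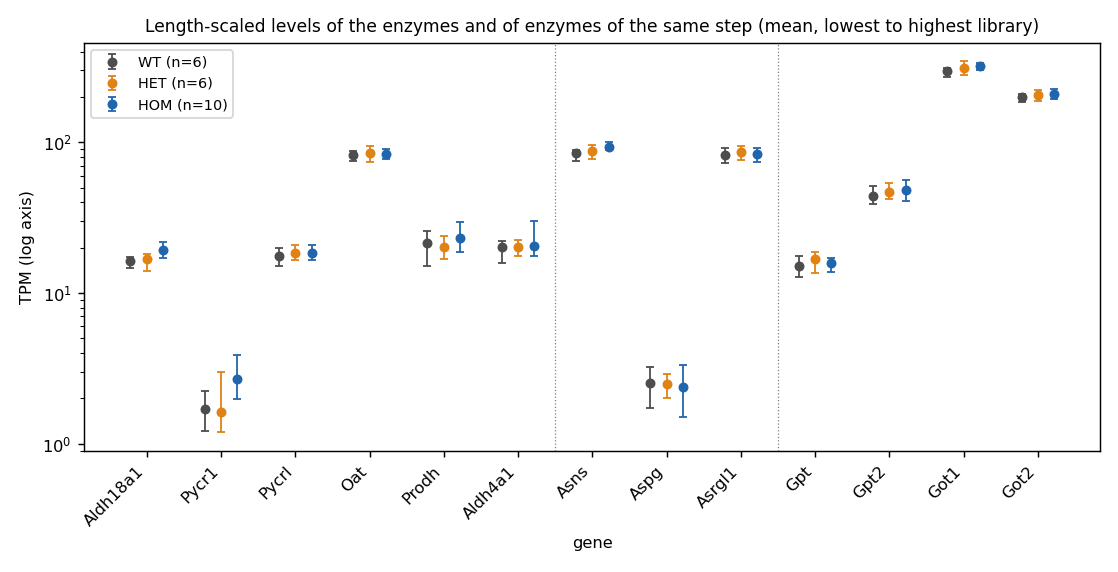
Deposited TPM on a log axis for the 9 members and for Pycrl, Aldh4a1, Asrgl1 and Got2, which act at the same or the next step, by genotype. Points are means and bars run from the lowest to the highest library. Got1 and Got2 lie highest, and Pycr1 and Aspg lie lowest in each genotype.

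The members with low levels sat beside abundant relatives. Pycr1 stood below Pycrl, the cytosolic enzyme of the same step also named Pycr3, which had 17.5 TPM in WT (SD 2.1). Aspg was 2.94% of the sum of Aspg and Asrgl1, which gave the other 97.1%. Mitochondrial Gpt2 gave 74.3% of the alanine aminotransferase sum, and cytosolic Got1 59.8% of the Got1 and Got2 sum (59.4% to 60.2%, the narrowest share of these families).

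Aldh18a1 and Pycr1, the synthesis transcripts among the proline members, had higher mean values in homozygous cords. Pycrl, of the same step as Pycr1 and more abundant, was nearly level (11.3 CPM in WT, 11.6 in HOM). Aldh18a1 alone of the 9 members was called in HOM against WT at an adjusted p below 0.05. The call rule picked 0.0943% of all genes tested (16 of 16974). Aldh18a1 in WT had a lowest value of 25.1, a median of 25.8 and a highest of 28.6 CPM. In HET these were 24.2, 27.6 and 28.4, and in HOM 27.1, 31.9 and 33.5. Of the 10 HOM libraries 9 lay above the highest WT library, and the exception was HOM 3 at 27.1 CPM. Aldh18a1 rose 1.19-fold in HOM over WT (31.2 against 26.2 CPM, SD 2.08 and 1.25, log2 fold change 0.25, SE 0.0454, 95% interval 0.16 to 0.35, edgeR adjusted p = 0.0132). The tissue is bulk, so a change in the number of cells of a type and a change of RNA per cell cannot be told apart.

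Without HOM 3 the Aldh18a1 difference was 0.27 (SE 0.0411, edgeR adjusted p = 0.00109) and the groups no longer overlapped, with HOM from 29.2 to 33.5 CPM. The call was lost at an unchanged direction when WT 1, WT 3 or WT 5 was left out (edgeR adjusted p = 0.0527, 0.0528 and 0.052). It was lost as well in a fit with the title prefix as a covariate (0.24, edgeR adjusted p = 0.0815). The prefix is the number, 39992, 40411 or 40412, that begins each sample title and that the labels do not explain. Within these prefixes the HOM minus WT difference was 0.26 (5 HOM, 1 WT), 0.25 (3 and 2) and 0.20 (2 and 3) on the log2 scale. Limma-trend on log2(TPM + 1) gave 0.23 with an adjusted p of 0.444.

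Pycr1, a reductase that completes proline synthesis, had the largest fold difference of the 9 but did not pass the test. Its WT libraries had a lowest value of 1.15, a median of 1.31 and a highest of 1.65 CPM, and its HOM libraries 1.67, 1.96 and 2.85. On the CPM scale all 10 HOM libraries lay above all 6 WT libraries, by a narrow margin between WT 4 and HOM 4. That pattern, with HOM higher, was found in 0.118% of all genes tested, and Pycr1 was the only member with it. Without HOM 3 it held for 2 members, Pycr1 and Aldh18a1, and 0.159% of genes. The fold was 1.54 (95% interval 1.26 to 1.90, log2 fold change 0.63, SE 0.144, edgeR adjusted p = 0.152), resting on 33 to 58 counts in a WT library and 50 to 111 in a HOM library. Without HOM 3 the log2 fold change of Pycr1 was 0.59 (edgeR adjusted p = 0.19). Without HOM 8, its highest library, it was 0.56 (edgeR adjusted p = 0.217). DESeq2 on all libraries gave 0.63 with an adjusted p of 0.0365. It was the only 1 of 10 alternative fits to call Pycr1, and 0 of 22 fits with a library left out did so. Limma voom gave 0.62 (adjusted p = 0.144), and edgeR on prefixes 40411 and 40412 alone gave 0.65 (adjusted p = 0.783). Unfiltered limma-trend on log2(TPM + 1) gave 0.43 (adjusted p = 0.818). Within the 3 title prefixes the difference was 0.75, 0.74 and 0.48.

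Pycr1 varied widely among heterozygous cords, with a lowest value of 1.06, a median of 1.39 and a highest of 2.17 CPM (HET 1). On the TPM scale Pycr1 was at 2.67 in HOM (SD 0.67) against 1.71 in WT (SD 0.407) and 1.62 in HET (SD 0.688). On this scale the HOM libraries (1.97 to 3.89) overlapped the WT libraries (1.22 to 2.23). Pycrl gave no call, at 11.3 CPM in WT and 11.6 in HOM (log2 fold change 0.03, 95% interval -0.09 to 0.15, edgeR adjusted p = 0.927).

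**Figure D2:**
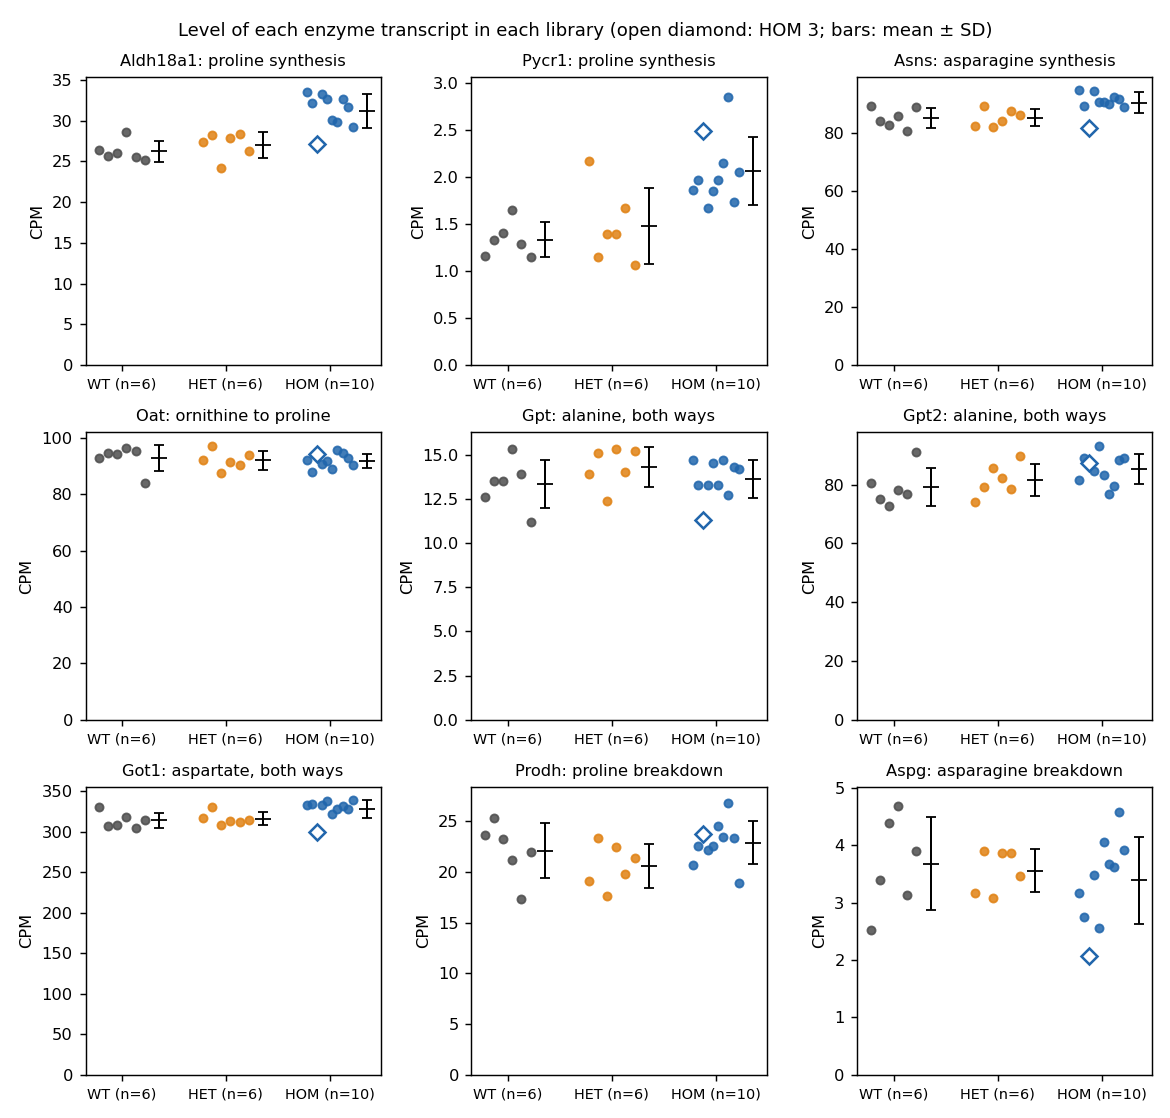
CPM of each member in each of the 22 libraries, by genotype, with the mean and SD beside the points and HOM 3 as an open diamond. For Aldh18a1, 9 of 10 HOM points lie above all WT points, and for Pycr1 all 10 do, while Oat, Gpt, Prodh and Aspg overlap broadly.

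Oat, which feeds the same intermediate from ornithine, was nearly level across genotypes. Its WT libraries had a lowest value of 83.9, a median of 94.3 and a highest of 96.5 CPM, with 87.3, 91.7 and 96.9 in HET and 87.8, 91.8 and 95.5 in HOM. The HOM range lay within the WT range. The log2 fold change in HOM against WT was -0.02 (95% interval -0.08 to 0.05, edgeR adjusted p = 0.923). The mean log2 ratio of Aldh18a1 to Oat on the TPM scale was -2.35 in WT (SD 0.12) and -2.14 in HOM (SD 0.132), with overlapping libraries.

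Prodh, the enzyme of proline breakdown, gave no call. It ran from 17.3 through a median of 22.6 to 25.3 CPM in WT, from 17.6 through 20.6 to 23.3 in HET, and from 18.9 through 22.9 to 26.8 in HOM. The 3 groups overlapped. The log2 fold change in HOM against WT was 0.05 (95% interval -0.11 to 0.20, edgeR adjusted p = 0.904). Prodh varied more among WT libraries than most genes of like level: its coefficient of variation was 12.5%, and 90.8% of the 3053 genes within 1.5-fold of its level had a lower one. Aldh4a1, which carries proline breakdown on to glutamate, was at 37 CPM in WT and 36.7 in HOM (-0.01, 95% interval -0.17 to 0.14). Set side by side on the TPM scale, the log2 ratio of Aldh18a1 to Prodh was -0.39 in WT (SD 0.249), -0.28 in HET (SD 0.145) and -0.27 in HOM (SD 0.223), with overlapping libraries. That of Pycr1 to Prodh was -3.67 in WT (SD 0.58), -3.72 in HET (SD 0.581) and -3.15 in HOM (SD 0.223). The HOM libraries (-3.55 to -2.80) lay within the WT range (-4.39 to -2.76).

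Asns, the classic ATF4 target of asparagine synthesis, differed little between genotypes and did not pass the test. Its WT libraries had a lowest value of 80.9, a median of 85 and a highest of 89.3 CPM. HET gave 82.2, 85.4 and 89.3, and HOM 81.9, 91 and 94.9. Of the 10 HOM libraries 8 lay above the highest WT library, HOM 2 by less than the rounding, and HOM 3 lay among the lowest WT values. The fold was 1.06 (95% interval 1.02 to 1.11, log2 fold change 0.09, SE 0.031, edgeR adjusted p = 0.713). Without HOM 3 the HOM range narrowed to 89.1 to 94.9 CPM and the difference was 0.10 (SE 0.0272, edgeR adjusted p = 0.274). Within the title prefixes it was 0.02, 0.13 and 0.09. On the TPM scale the HOM libraries ran from 88.6 to 100 and the WT libraries from 75.3 to 88.6.

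Aspg, on the breakdown side, gave wide intervals. It ran from 2.53 through a median of 3.65 to 4.69 CPM in WT, from 3.08 through 3.66 to 3.89 in HET, and from 2.07 (HOM 3) through 3.55 to 4.58 in HOM. The groups overlapped broadly, and the log2 fold change in HOM against WT was -0.12 (95% interval -0.41 to 0.18, edgeR adjusted p = 0.869). Among HOM libraries its level differed with the title prefix, a split seen in the values, not tested and not counted over all genes. The HOM libraries of prefix 39992, HOM 3 included, ran from 2.07 to 3.48 CPM. The other HOM libraries ran from 3.62 to 4.58. Of the other prefixes, WT 2 (3.4) and WT 5 (3.14) lay within the 39992 HOM range. So did HET 1 (3.17), HET 3 (3.08) and HET 6 (3.46), while the remaining WT and HET libraries of those prefixes lay above it. WT means were 2.53 CPM for 39992 (1 library), 3.9 for 40411 and 3.91 for 40412, and HOM means were 2.8, 3.78 and 4.25. The difference was 0.12, -0.03 and 0.14 within the prefixes, and 0.07 with the prefix as a covariate, and was -0.06 without HOM 3, so its direction depended on the setting. Asrgl1, the abundant relative, was at 185 CPM in WT and 182 in HOM (-0.03, 95% interval -0.09 to 0.04). The log2 ratio of Asns to Aspg in TPM was 5.34 in HOM (SD 0.331), or 5.28 without HOM 3, against 5.11 in WT, with overlapping libraries.

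The aminotransferases gave no call. Gpt2, the mitochondrial alanine enzyme, had a lowest value of 72.7, a median of 77.6 and a highest of 91.2 CPM in WT, against 74.1, 80.7 and 89.8 in HET and 76.7, 86.1 and 93.1 in HOM. WT 6 lay within the upper HOM values, and the groups overlapped (log2 fold change 0.11 in HOM against WT, 95% interval 0.01 to 0.21, edgeR adjusted p = 0.815). The Gpt2 difference was 0.11, 0.11 and 0.12 within the 3 prefixes. Gpt, the cytosolic form, ran from 11.2 through 13.5 to 15.3 CPM in WT, from 12.4 through 14.6 to 15.3 in HET and from 11.3 through 13.8 to 14.7 in HOM (0.03, 95% interval -0.10 to 0.16). HOM 3 was its lowest HOM library, and without it the difference was 0.06 (SE 0.0582, edgeR adjusted p = 0.858).

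Got1 was the most precisely measured member. Its lowest, median and highest values were 305, 312 and 331 CPM in WT, 308, 315 and 331 in HET, and 300, 333 and 339 in HOM. HOM 3, at 300 CPM, was the lowest of all 22 libraries, and the next HOM library was at 322. The fold was 1.05 (95% interval 1.01 to 1.09, log2 fold change 0.06, SE 0.0261, edgeR adjusted p = 0.815), and without HOM 3 the log2 fold change was 0.08 (SE 0.0228, edgeR adjusted p = 0.422). Got2, its mitochondrial partner, was at 265 CPM in WT and 270 in HOM (0.03, 95% interval -0.03 to 0.08).

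**Figure D3:**
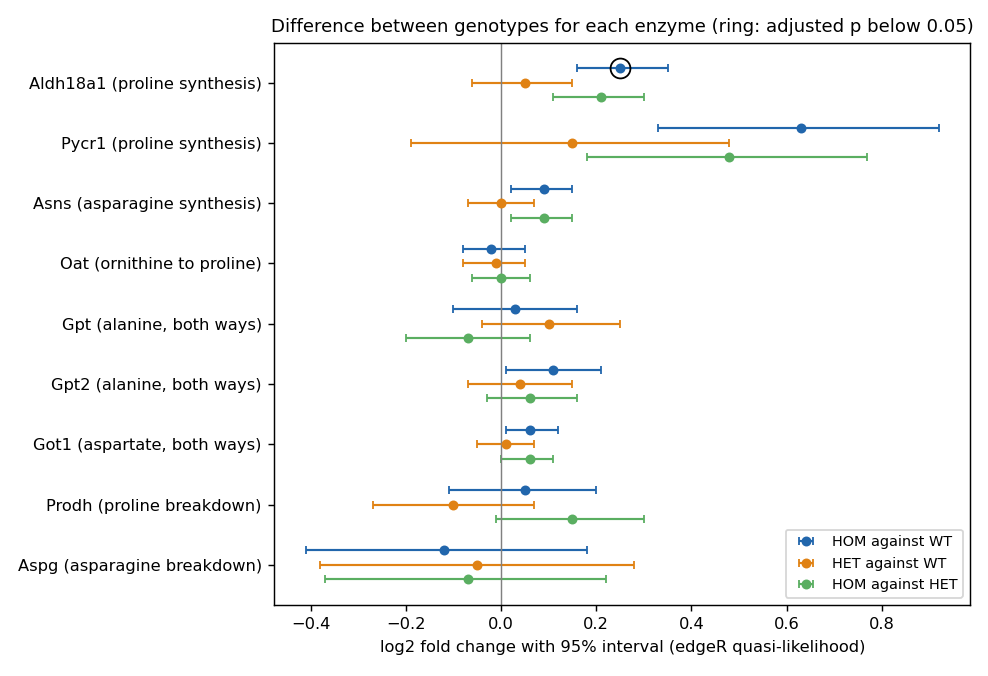
Log2 fold change of each member with its 95% interval in the 3 comparisons, from the edgeR fit over all genes. The ring marks Aldh18a1 in HOM against WT (0.25), the only call, and the intervals of Oat, Gpt, Prodh and Aspg span 0 in each comparison.

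Counted together, 7 of the 9 members had a positive fold change in HOM against WT, with a median log2 value of 0.065 beside 0.007 over all genes tested. An unadjusted p below 0.05 was reached by 5 of the 9, namely Aldh18a1, Pycr1, Asns, Gpt2 and Got1, and by 5.91% of all genes. The members that did not reach it were Prodh and Aspg, of breakdown alone, and Oat and Gpt, which are not. The members were chosen with earlier results of these data known, so these counts describe them and test nothing further.

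In heterozygous cords no member was called, as was no gene at all (0% of 16974), and none of the 9 had an unadjusted p below 0.05 (3.41% of all genes had). DESeq2, limma voom and limma-trend called no gene either. The Aldh18a1 fold change in HET against WT was 0.05 (95% interval -0.06 to 0.15), that of Pycr1 0.15 (-0.19 to 0.48) and that of Asns 0.00 (-0.07 to 0.07). The largest fall in value was that of Prodh (-0.10, -0.27 to 0.07). This comparison and the previous one share their WT libraries.

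Between HOM and HET no member passed, against 0.106% of genes called, and none had all HOM libraries above all HET libraries (0.124% of genes had). Aldh18a1 came closest, at 31.2 against 27 CPM with 9 of 10 HOM libraries above the highest HET library (log2 fold change 0.21, 95% interval 0.11 to 0.30, edgeR adjusted p = 0.0687). It passed without HOM 3 (0.23, edgeR adjusted p = 0.012), when it was the 1 member whose groups did not overlap (0.165% of genes), without HOM 10 (0.22, edgeR adjusted p = 0.0487) and by DESeq2 (0.21, adjusted p = 0.00855). With the prefix as a covariate its adjusted p was 0.681 (edgeR). Prefix 39992 held 5 HOM and 0 HET libraries, 40411 held 3 and 1, and 40412 held 2 and 5. Genotype and prefix therefore cannot be fully told apart in this comparison. Within 40411 and 40412 the HOM minus HET difference was 0.17 and 0.17 for Aldh18a1, and 0.08 and 0.52 for Pycr1. It was 0.14 and 0.08 for Asns, and 0.38 and 0.01 for Prodh. Pycr1 was at 2.06 against 1.47 CPM (0.48, 95% interval 0.18 to 0.77, edgeR adjusted p = 0.298), Asns at 90.6 against 85.4 (0.09, 0.02 to 0.15) and Prodh at 22.8 against 20.6 (0.15, -0.01 to 0.30). Without HOM 3 the Pycr1 difference was 0.44 (edgeR adjusted p = 0.296) and that of Asns 0.10 (edgeR adjusted p = 0.173). The difference of Oat was 0.00 (-0.06 to 0.06). An unadjusted p below 0.05 was reached by 4 of the 9, beside 8.8% of all genes.

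**Figure D4:**
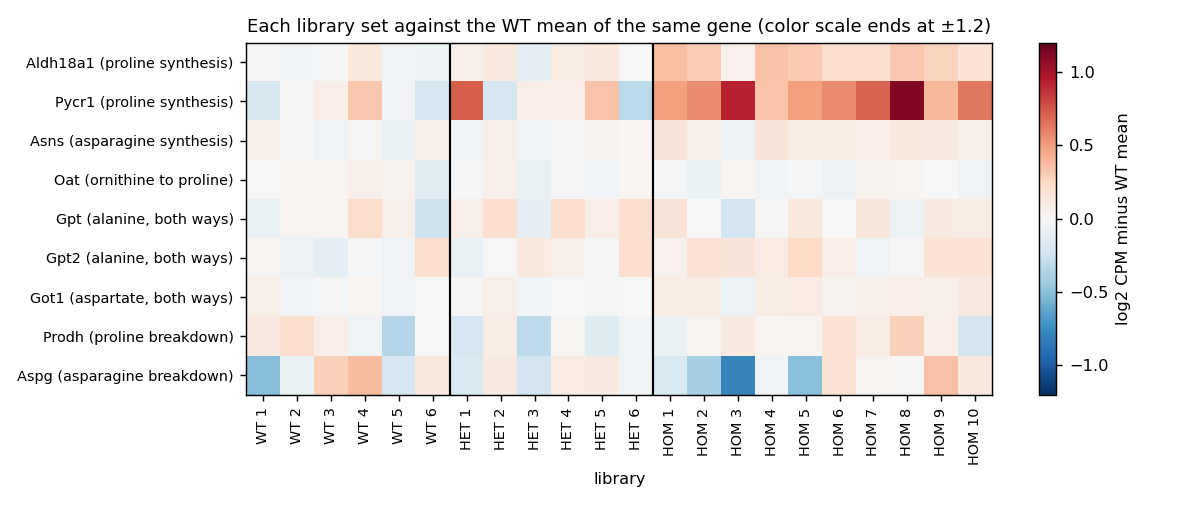
Log2 CPM of each member in each library minus the WT mean of that member, with libraries in columns by genotype. The Pycr1 row runs up to 1.11 in HOM 8 and stands at 0.92 in HOM 3, whereas Aldh18a1 in HOM 3 is at 0.05 and Aspg there at -0.80.

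Across the 22 libraries, Aldh18a1, Asns and Got1 varied together. Spearman's rho of log2 CPM was 0.84 for Aldh18a1 with Asns, 0.79 for Aldh18a1 with Got1 and 0.80 for Asns with Got1. After each genotype's mean was subtracted these were 0.57, 0.47 and 0.59, and 0.51, 0.46 and 0.53 without HOM 3. The proline pair did not share this: Aldh18a1 with Pycr1 had 0.60 over all libraries and -0.05 within genotypes. Pycr1 within genotypes had -0.52 with Asns and -0.55 with Gpt2, and Oat had -0.49 with Gpt2. The points share library, depth and tissue makeup, so these values are descriptions.

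The genes most like each member by the same measure, among 13502 with at least 1 CPM on average, were as follows. Aldh18a1 was closest to Aars, the alanyl-tRNA synthetase (rho 0.93), then Pef1 (0.91) and Tmem179 (0.89). Asns was closest to Yars (0.94), followed by Ndrg4 (0.91) and Susd4 (0.90), and Got1 to Ndrg4 (0.89), Prpf19 (0.85) and Yars (0.85). Gpt2 was closest to Herpud1, a gene of protein quality control in the endoplasmic reticulum (0.90), then to the glucose carrier Slc2a1 (0.85) and Dnaja4 (0.81). Pycr1 was nearest to Tfe3 (0.82), Tet3 (0.75) and Slc29a1 (0.73). Prodh was nearest to Fn1 (0.85), Chtf18 (0.84) and Cyp4f13 (0.84), Aspg to Ggt5 (0.86), Myo1d (0.81) and Plekhh1 (0.77), Gpt to Gng11 (0.85), Clu (0.82) and Lcat (0.79), and Oat to Sp100 (0.81), Haus1 (0.80) and Ildr2 (0.75). Without HOM 3 these rho values lay between 0.70 and 0.94.

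The wider pathway gave a single call. Of 75 genes on 6 related lists 69 were tested, and 1 rose in HOM against WT: Atf4, from 77.3 to 90.6 CPM (log2 fold change 0.23, SE 0.0383, edgeR adjusted p = 0.00461), with HET at 85.5. Atf4 was not called in the fit of prefixes 40411 and 40412 only or in limma-trend on unfiltered TPM. The median over the 69 was 0.04. On the proline and ornithine list 0 of 11 tested genes passed, with Arg2, which makes ornithine from arginine, at 0.68 CPM in WT and 0.591 in HOM. On the aspartate, asparagine and alanine list 0 of 16 passed, and on the glutamate and glutamine list 0 of 12. There Glul, which makes glutamine, was at 1790 and 1760 CPM, Glud1, glutamate dehydrogenase, at 378 and 386, and Psat1, which takes nitrogen from glutamate into serine synthesis, at 192 and 205. On the list of carriers 0 of 14 passed, and Slc38a2, a carrier of small neutral amino acids, ranged from 174 to 301 CPM in WT and from 142 to 325 in HOM.

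The synthetases that load the 3 amino acids onto tRNA gave no call over all genes (0 of 6). Aars had the largest difference, 257 CPM in HOM against 229 in WT (0.17, SE 0.0389, edgeR adjusted p = 0.164), and was called by DESeq2 and by edgeR without HOM 3. Nars, for asparagine, was at 297 against 285 (0.06, 95% interval -0.02 to 0.13), and Eprs, for glutamate and proline, at 134 against 131 (0.04, -0.02 to 0.10). Of the 10 ATF4 branch regulators 9 had a positive fold change, as had 9123 of the 16974 genes tested. The median of the 10 was 0.174, beside 0.007 over all genes, with Atf4 as the 1 call. They ran from -0.01 (Atf3) to 0.39 (Cebpb), with Trib3 at 0.35, Ddit3 at 0.20 and Ppp1r15a at 0.15. Cebpg was at 0.05, Eif2ak4 at 0.04 and Eif2ak3 at 0.03. Atf5, at 0.19, had a median of 27.9 CPM in both WT and HOM and a highest HOM value of 69.7. An unadjusted edgeR p below 0.05 was reached by 2 of the 10, Atf4 and Ddit3, beside 5.91% of all genes. For Ddit3 the edgeR adjusted p was 0.547. No gene of the 6 lists was called in HET against WT or in HOM against HET.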

How the data were processed

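Polyadenylated RNA of whole spinal cord was sequenced as stranded libraries, per the labels' protocols. The authors deposited 1 RSEM gene table per library, whose expected counts share ambiguous reads among genes and whose TPM are scaled by transcript length and to a common total, per the file headers. Bowtie2 2.2.0 and RSEM 1.2.12 appear in the submitters' processing notes, and no label or header used here names the build, annotation or use of strand. Before fitting, the deposited expected counts (14.41% to 16.23% of values not whole) were rounded. Genes passing filterByExpr were TMM-scaled and all 22 libraries fitted together with edgeR 4.0.16 (robust quasi-likelihood, R 4.3.3), with Benjamini-Hochberg adjustment over 16974 genes and calls at an adjusted p below 0.05. The SE comes from the F statistic, and the 95% interval from the t distribution. Alternatives used DESeq2 1.42.0 and limma 3.58.1 (voom, and trend on the deposited TPM with a pseudocount of 1 or 0.1), other filters, title prefixes and libraries left out singly. The scripts were tested on simulated data. No 2 libraries were identical. All members passed the filter, so the test planned for members below it was not needed.

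The members, the 6 related lists and the marker lists were chosen with earlier results of these data known. Text names every member, every list gene called, the pathway neighbours listed for this purpose, of which 1 is not reported here, and, per member, the 3 genes of highest Spearman rho, without clone names and sex-linked genes. Further genes named were chosen after their values were seen. Gene symbols came from a table by Ensembl ID (37607 of 38924 matched).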

Additional observations from a re-analysis of the deposited data

Results flagged for a closer look

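Of 27 sets of values (9 members in 3 genotypes), 4 held a library set apart from its group by a gap that is large for the group's range, where chance gives about 1 in 20. Aldh18a1 in WT 4 was at 28.6 CPM, against 26.4 for the next WT library. Oat in WT 6 was at 83.9 CPM, below 92.7 for the next. Asns in HOM 3 was at 81.9 CPM against 89.1, and Got1 in HOM 3 at 300 CPM against 322. HOM 3 is also the library with high Schwann cell, fibroblast, blood, endothelium and muscle markers, and their part in these values was not tested.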

How the results depend on the processing

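Each of 27 member fold changes (9 members, 3 comparisons) was recomputed under 32 alternatives, 22 of which leave out 1 library. Of these 864 values 832 counted as unchanged in sign and side of the threshold, 8 lost a call, 4 gained one and 20 changed sign. None of the values that changed sign had a call. Signs were read at 2 decimals, and a value of 0.00 had none. Oat in HOM against HET and Asns in HET against WT, both 0.00 in the main fit, could therefore not count as changed. The number of members called in HOM against WT was 1, and 2 by DESeq2. It fell to 0 when the fit had the prefix as a covariate, 0 with prefixes 40411 and 40412 only (Aldh18a1 0.22, edgeR adjusted p = 0.28), and 0 in each of 3 limma-trend fits on TPM (Aldh18a1 0.23 to 0.24, adjusted p = 0.444 to 0.567). With single libraries left out it ran from 0 to 1, and in HOM against HET also from 0 to 1, with 1 by DESeq2. In HET against WT it was 0 throughout. The cause was not tested.

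No call was involved where signs changed. Aspg in HOM against WT was 0.07 with the prefix as a covariate and 0.02 with prefixes 40411 and 40412 only, and in HOM against HET 0.22 and 0.16. In limma-trend on log2(TPM + 1), log2(TPM + 0.1) and log2(TPM + 1) without a filter, Oat was 0.02, 0.02 and 0.02 in HOM against WT and 0.03, 0.03 and 0.03 in HET against WT, Pycr1 in HET against WT was -0.07, -0.12 and -0.07, and Aspg in HET against WT 0.01, 0.02 and 0.01. With libraries left out, Aspg in HET against WT ran from -0.14 to 0.03, Prodh in HOM against WT from -0.01 (without WT 5) to 0.09 and Gpt from -0.01 (without WT 6) to 0.07. On the related lists DESeq2 and edgeR without HOM 3 called 2 genes in HOM against WT (Atf4 and Aars), and 0 were called with prefixes 40411 and 40412 only and in unfiltered limma-trend. Over all genes 16 were called in HOM against WT, 28 by DESeq2, 8 with prefixes 40411 and 40412 only and 10 in unfiltered limma-trend. In HOM against HET there were 18, 76 by DESeq2, 10 with the prefix as a covariate, 11 in limma-trend on log2(TPM + 1), and 10 (without HET 3) to 39 (without HOM 10) with 1 library left out. Low counts limit Pycr1 (33 counts in the lowest WT library) and Aspg. No paired analysis was possible because the replicate numbers only follow the order of deposition.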

Other observations

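Among carriers and side branches of these pathways, 6 further genes, singled out after their values were seen, had an unadjusted p below 0.05 in HOM against WT or in HOM against HET without passing the adjusted test. Over the 69 tested genes of the 6 lists 8.7% reached this p in each comparison, beside 5.91% and 8.8% of all genes, so the lists lay near the share of all genes in HOM against HET. Ddo, which oxidises D-aspartate, was at 13.2 CPM in HOM and 14.9 in WT (-0.17, SE 0.0634, edgeR adjusted p = 0.76), and in HET it was at 13 CPM. Slc25a12, the aspartate and glutamate carrier of mitochondria, was at 227 against 217 (0.07, SE 0.0294), and Slc1a4, a carrier of alanine and serine, at 75.6 against 70.7 (0.10, SE 0.0405). Abat, which breaks down the transmitter GABA, was at 709 CPM in HOM and 679 in HET (0.06, SE 0.0225). Slc6a20a, a proline carrier, was at 4.78 CPM in HOM and 3.68 in HET (0.38, SE 0.179), and 4.62 in WT. Slc36a4, of the family of proton-coupled amino acid carriers, was at 118 CPM in HOM and 113 in HET (0.06, SE 0.0301).

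Liver-type enzymes that handle alanine or ornithine elsewhere were near the limit of detection: Agxt had no count in any library, and Otc and Agxt2 averaged at most 0.00924 CPM in any genotype. Aldh4a1 reached 52 CPM in 1 HOM library, HOM 8, against a group median of 35.2. HOM 8 also held the highest HOM values of Atf5 (69.7 CPM), Slc6a20a (7.95), Pycr1 (2.85) and Prodh (26.8), and why was not tested.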
